A study of Mus musculus with 7 samples.

Results

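The genes that hold heart muscle cells together end to end were followed at postnatal day 30 (P30) and postnatal day 6 (P6) in mouse cardiomyocytes. A set of 10 was taken by symbol from the deposited count table: the classical cadherin Cdh2, the alpha-catenins Ctnna1 and Ctnna3, the desmosome genes Dsg2, Dsc2, Jup, Pkp2 and Dsp, and the Xin-repeat genes Xirp1 and Xirp2. All 10 were among the 23337 genes of the table, and all 10 were among the 12561 genes with enough counts to be tested.

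Cardiomyocytes meet at the intercalated disc, a specialised contact that carries the force of contraction and the electrical signal from cell to cell. In its adherens junctions, cadherins span the gap and catenins tie them to the actin of the last sarcomere. In its desmosomes, desmogleins and desmocollins span the gap, and plakoglobin, plakophilin and desmoplakin tie them to the intermediate filament desmin. In the mammalian heart both kinds of contact mix into composite junctions and gather at the cell ends after birth, and inherited faults of the desmosome genes are a known cause of arrhythmogenic cardiomyopathy.

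The P30 group had 3 libraries and the P6 group 4. The genotype label at both ages is Rosa-Tom/Cas9, and all animals received AAV9-cTNT-Cre on postnatal day 1, a virus whose cardiac troponin T promoter drives Cre in cardiomyocytes. Cells were freed by collagenase perfusion of the heart and collected by fluorescence-activated sorting. How the parts of that genotype were spread over the animals is not stated, nor whether libraries came from separate animals. The p-values therefore set the difference between the ages only against the spread among libraries of an age, which can be technical. Every animal had the virus at the same age, so age cannot be told apart from time since the virus, and one label text gives collection at P14 where titles, ages and design text give P6 or P30. The libraries are named by their column letters, P30a to P30c and P6a to P6d.

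Total counts were 15555469 to 19368717 at P30 and 10594932 to 51427646 at P6, and the lowest count of any of the 10 genes in any library was 512. Values are CPM, counts set to a common library size with TMM factors, which correct for differences in library make-up. Cardiomyocyte markers were high in every library, where the summed CPM of 12 such genes was 131966 to 141314 at P30 and 95113 to 116980.0 at P6. Of these 12 genes 4 were higher and 1 lower at P30, and the rest did not pass. Myh6 made up the largest part of the sum, with 54701 to 58678 CPM at P30 and 26977 to 40316 CPM at P6. Markers of other cells were also present. The summed CPM of 8 endothelial markers was 328 to 644 at P30 and 116 to 237 at P6, and 7 of the 8 were higher at P30. Of 6 tested macrophage markers all were higher at P30, with a list sum of 12.2 to 39.9 CPM there and 2.27 to 4.47 CPM at P6. Among 8 epithelial and epicardial markers 2, Krt8 and Krt18, were lower and none higher, with a sum of 5.63 to 6.87 CPM at P30 and 23.4 to 61.2 CPM at P6. Krt18 made up most of the P6 sum, with 0.561 to 1.10 CPM at P30 and 20.5 to 54.0 CPM at P6. Krt19, Upk3b, Msln and Wt1 overlapped between the ages. Cdh1 and Epcam, which define epithelia, had at most 0.391 and 0.223 CPM in any library. The sums overlapped between the ages for fibroblast (137 to 313 CPM at P30 and 158 to 391 CPM at P6), smooth muscle and pericyte (973 to 1815 and 984 to 2193 CPM), atrial (189.6 to 572 and 279 to 614 CPM), Schwann (3.16 to 5.36 and 3.55 to 5.07 CPM) and erythroid markers (0.112 to 0.517 and 0.221 to 1.33 CPM), with Hba-a1 and Hba-a2 at 0 in every library. Acta2 made up most of the smooth muscle and pericyte sum, with 806 to 1703 CPM at P30 and 915 to 2075 CPM at P6. In that list Myh11, Pdgfrb and Kcnj8 were higher at P30 without overlap, and Cnn1 was lower without overlap. Of the smooth muscle and pericyte markers 4 were higher and 1 lower at P30, 1 fibroblast marker and 2 atrial markers were lower, and no Schwann or erythroid marker passed. What part these other cells have in the results was not tested.

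Across the 10 genes, 4 were higher at P30 (Jup, Dsp, Xirp1 and Xirp2), 2 were lower (Cdh2 and Ctnna1), and 4 did not pass the test (Ctnna3, Dsg2, Dsc2 and Pkp2; quasi-likelihood test of edgeR, threshold 0.05 on p-values adjusted by Benjamini-Hochberg over all tested genes). Of all tested genes 54.1% passed, 26.3% higher and 27.8% lower at P30, so 6 of 10 is near the background and the number of calls is not a result about these genes. With library totals instead of TMM factors the split over all genes was 2408 higher and 4658 lower, against 3307 and 3490 with TMM, and their median log2 fold change stood at -0.20, against -0.02. The median log2 fold change of the 10 genes was 0.20, beside -0.02 over all tested genes. The CPM of 6 of the 10 genes did not overlap between the ages, where 56.6% of all tested genes did not. Only Xirp2 among the 10 passed with a difference of at least 2-fold, as 23% of all tested genes did.

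**Figure D1:**
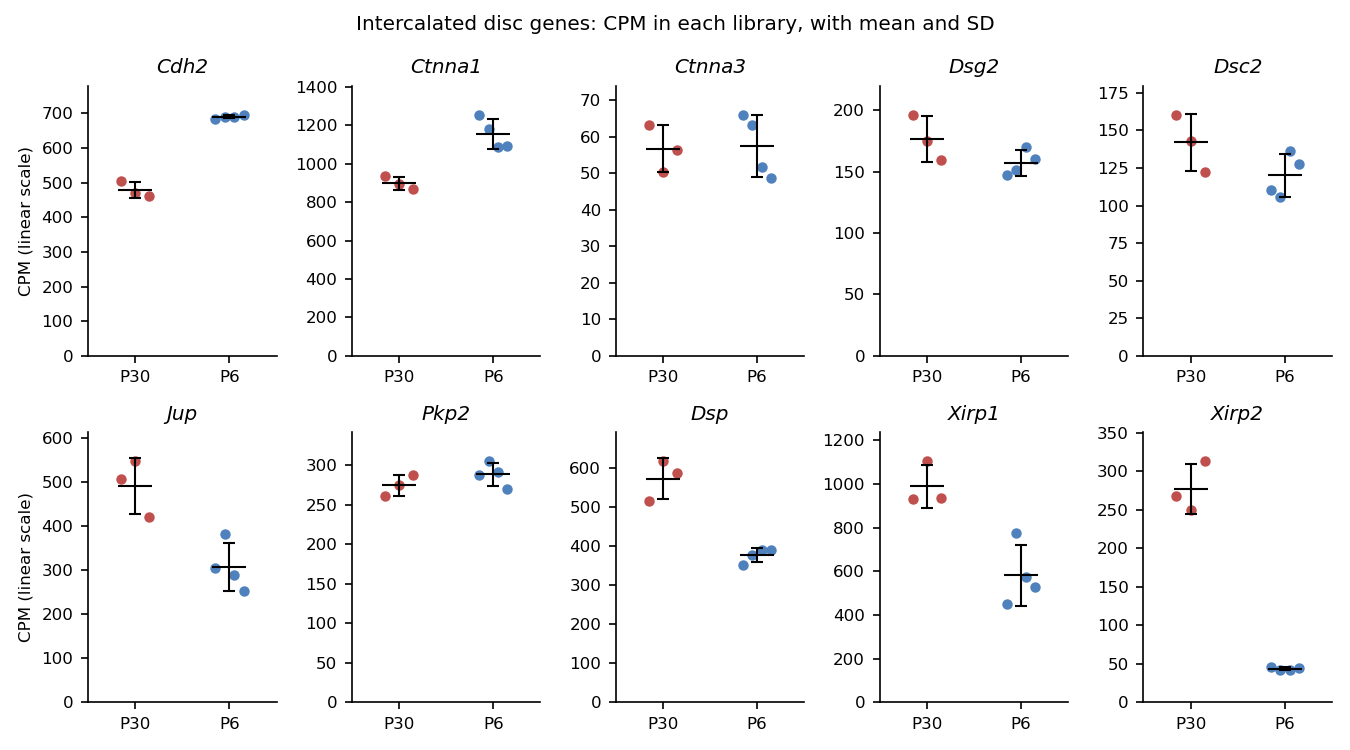
CPM of each of the 10 genes (vertical axis, linear, from 0) in each P30 library (red) and each P6 library (blue), with the mean and SD in black. Xirp2 sits between 251 and 313 CPM at P30, far above the 42.0 to 46.3 CPM at P6, Cdh2 and Ctnna1 sit lower at P30, and Pkp2 and Ctnna3 overlap.

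Of the 3 adherens junction genes, 2 were lower at P30. Cdh2 encodes N-cadherin, the classical cadherin of heart muscle, and lies on chromosome 18 of the mouse genome. It had 505, 471 and 463 CPM in P30a to P30c, against 685, 689.7, 689 and 695 CPM in P6a to P6d. Every P30 library lay below every P6 library, and the P6 libraries were nearly alike. The mean was 479 ± 22.5 CPM at P30 (SD, n = 3) and 689.7 ± 4.37 CPM at P6 (SD, n = 4), and the log2 fold change was -0.52 ± 0.07 (SE, edgeR adjusted p = 0.000295). The P30 mean was 69.5% of the P6 mean. In bulk libraries such as these, fewer cells of a type and less RNA per cell cannot be told apart.

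Ctnna1 encodes alpha-E-catenin, which links the cadherin complex to actin, and is also on chromosome 18. Its level was 933, 893 and 866 CPM in P30a to P30c, against 1254, 1182, 1086 and 1094 CPM in P6a to P6d, again with no overlap. The log2 fold change was -0.36 ± 0.08 (SE, edgeR adjusted p = 0.00467), and the P30 mean was 77.8% of the P6 mean. Ctnna3 encodes alpha-T-catenin, a relative found mainly in heart and testis that also binds plakophilin-2. It had 63.3, 50.4 and 56.5 CPM at P30, against 66.0, 63.3, 51.7 and 48.7 CPM at P6. The 2 groups overlapped, and the log2 fold change of -0.02 ± 0.13 did not pass (SE, edgeR adjusted p = 0.926). P6a and P6b were the higher pair at P6 for both alpha-catenins.

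The transmembrane cadherins of the desmosome did not pass the test. Dsg2, desmoglein-2, had 196, 174 and 159 CPM in P30a to P30c, against 147, 151, 170.1 and 161 CPM in P6a to P6d. Dsc2, desmocollin-2, had 160.3, 143 and 122 CPM in P30a to P30c, against 111, 106, 136 and 128 CPM in P6a to P6d. Both genes lie on chromosome 18, and their libraries fell in the same order at P30, highest in P30a and lowest in P30c. At P6 both were highest in P6c and next highest in P6d. The log2 fold changes were 0.17 ± 0.10 for Dsg2 (SE, edgeR adjusted p = 0.165) and 0.24 ± 0.12 for Dsc2 (SE, edgeR adjusted p = 0.122).

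The plaque proteins of the desmosome differed among themselves. Jup encodes plakoglobin, a relative of beta-catenin that sits in desmosomes and in adherens junctions, and spans chr11:100368958-100397763 on the minus strand (GRCm38). It had 506, 547 and 420.5 CPM in P30a to P30c, against 305, 383, 288 and 252 CPM in P6a to P6d. The lowest P30 library stayed above the highest P6 library, P6b. The mean was 491 ± 64.4 CPM at P30 (SD, n = 3) and 307 ± 55.1 CPM at P6 (SD, n = 4), and the log2 fold change was 0.68 ± 0.14 (SE, edgeR adjusted p = 0.00319). Plakoglobin is also a junction protein of endothelial cells, whose marker sum was 458, 644 and 328 CPM in P30a to P30c, against 116, 179, 237 and 204 CPM in P6a to P6d. Libraries ranked alike for Jup and for this sum at P30, but not at P6, where P6c and P6d were lowest for Jup and highest for the sum. What part endothelial RNA has in the Jup level was not tested.

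Dsp encodes desmoplakin, which anchors desmin at the desmosome, and spans chr13:38151294-38198577 on the plus strand (GRCm38). It had 514, 616 and 586 CPM in P30a to P30c, against 352, 376, 388 and 390.0 CPM in P6a to P6d, with no overlap. The log2 fold change was 0.60 ± 0.09 (SE, edgeR adjusted p = 0.00036). Dsp has a long transcript, 9592 bases in its longest coding form, and long transcripts as a class were higher at P30: at a mean of 10 CPM or more, genes in the shortest of 10 equally filled length bins had a median of -0.29 on the log2 fold change scale, and those in the longest bin 0.23. With a smooth trend on transcript length taken out of each library, the log2 fold change of Dsp was 0.35 ± 0.10 (SE, edgeR adjusted p = 0.0149).

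Pkp2 encodes plakophilin-2, which joins the desmosomal cadherins to desmoplakin, and spans chr16:16213318-16272712 on the plus strand (GRCm38). It had 261, 275 and 288 CPM in P30a to P30c, against 288, 305, 291 and 269 CPM in P6a to P6d. The groups overlapped, and the log2 fold change of -0.07 ± 0.08 did not pass (SE, edgeR adjusted p = 0.48). With library totals instead of TMM factors it was -0.25 ± 0.09 (edgeR adjusted p = 0.0294), so whether Pkp2 counts as lower depends on the scaling.

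Both Xin-repeat genes were higher at P30. Their proteins bind and bundle actin through a repeated motif and sit where the sarcomere's actin meets the junction. Xirp1, which encodes Xin and spans chr9:120013755-120023598 on the minus strand (GRCm38), had 932, 1103 and 933 CPM in P30a to P30c, against 451, 777, 573 and 528 CPM in P6a to P6d. The groups did not overlap, though P6b stood well above the other P6 libraries, as it did for Jup. The log2 fold change was 0.76 ± 0.16 (SE, edgeR adjusted p = 0.00337). Xirp2, also named myomaxin or Xin beta, spans chr2:67446002-67526614 on the plus strand (GRCm38). It had 268, 251 and 313 CPM in P30a to P30c, against 46.3, 42.0, 42.7 and 44.7 CPM in P6a to P6d. This was a 6.32-fold difference with a log2 fold change of 2.66 ± 0.10 (SE, edgeR adjusted p = 5.23e-07). Its absolute log2 fold change ranked 530 among the 12561 tested genes, and its transcript is the longest of the 10 at 11979 bases. With the length trend taken out, its log2 fold change was 2.35 ± 0.11.

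**Figure D2:**
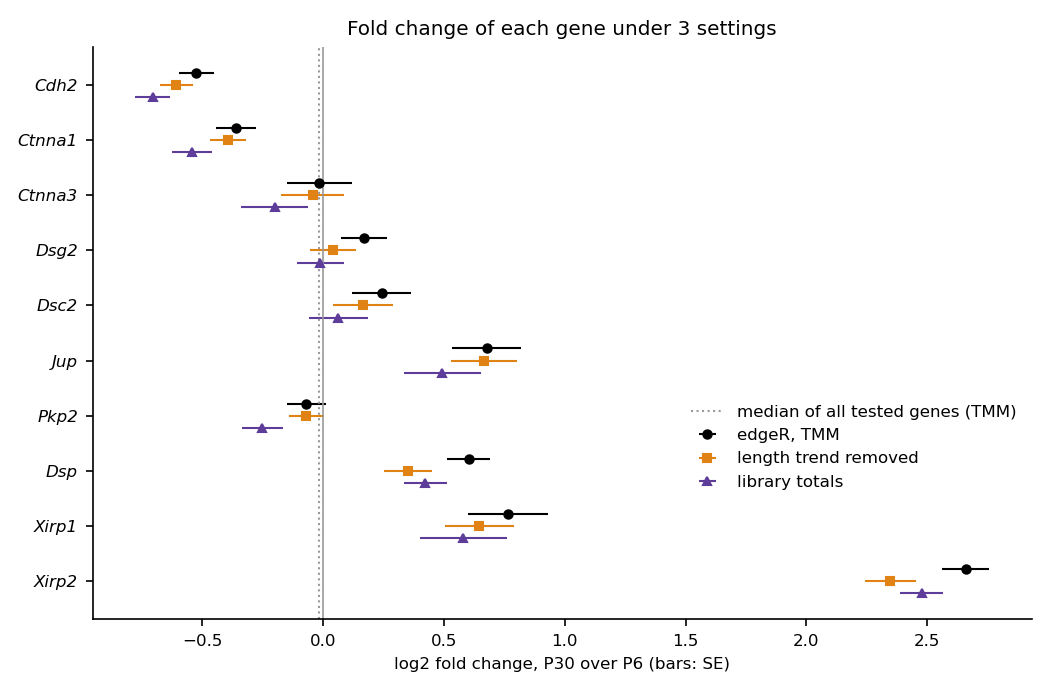
Log2 fold change of P30 over P6 for each gene (points, with SE as bars) with TMM factors, with the transcript length trend removed, and with library totals; the dotted line is the median of all tested genes. Xirp2 lies near 2.66, 2.35 and 2.48 under the 3 settings, Dsp is closer to 0 without the length trend, and Pkp2 moves to -0.25 with library totals.

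Promoter sequences are shown for Xirp2, Jup and Dsp, the genes higher at P30 for which RefSeq's promoter table held an entry, to let the gene with the largest change be read beside the other 2. Each is the 250 bases before the annotated start, 5′ to 3′ on the gene's strand (RefSeq, GRCm38.p6), at chr2:67445752-67446001 on the plus strand for Xirp2, chr11:100397791-100398040 on the minus strand for Jup and chr13:38151044-38151293 on the plus strand for Dsp. Capitals mark the letters of a motif found on either strand.
Xirp2: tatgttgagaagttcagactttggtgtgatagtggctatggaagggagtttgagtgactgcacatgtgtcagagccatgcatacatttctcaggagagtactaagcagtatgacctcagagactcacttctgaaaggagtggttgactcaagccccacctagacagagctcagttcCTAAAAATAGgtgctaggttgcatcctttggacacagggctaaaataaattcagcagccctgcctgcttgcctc
Jup: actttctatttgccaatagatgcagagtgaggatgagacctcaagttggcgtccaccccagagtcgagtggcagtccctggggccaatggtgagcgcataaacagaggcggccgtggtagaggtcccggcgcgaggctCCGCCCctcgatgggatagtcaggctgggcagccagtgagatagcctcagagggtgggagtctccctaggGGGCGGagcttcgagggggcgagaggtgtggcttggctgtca
Dsp: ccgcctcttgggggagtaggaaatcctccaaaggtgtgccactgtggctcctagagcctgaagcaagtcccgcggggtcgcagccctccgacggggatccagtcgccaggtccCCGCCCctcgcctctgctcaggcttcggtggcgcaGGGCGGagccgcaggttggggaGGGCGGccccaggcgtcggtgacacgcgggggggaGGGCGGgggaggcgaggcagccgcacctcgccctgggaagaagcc
The capitals in Xirp2 are a match to the MEF2 motif, which reads as a match on both strands, from 74 to 65 bases before the start; 2.92% of 32851 promoter windows of this length held one. MEF2 factors bind such letters in muscle genes, and mouse Xirp2 is a known target of MEF2A. The capitals in Jup and Dsp are matches to GGGCGG, the GC box, or to its reverse complement: 2 in Jup and 4 in Dsp, and 32.7% of windows held at least 1. GC content was 46.8% for Xirp2, 62.0% for Jup and 72.4% for Dsp, beside a median of 52.4% over all windows. The 3 windows held no TATAAA, the TATA box, which 12.4% of all windows held. They held no AGATAA, a letter run bound by GATA factors, which 9.99% held. They held no CAGCTG, an E-box that reads the same on both strands, which 13.0% held. They held neither CATTCC, the M-CAT motif, which 12.6% held, nor the CArG motif, which 1.47% held. A match is a description of letters and not a site of binding.

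Levels were next compared between genes per length, as CPM per kilobase of the longest coding transcript. At P30 the order from high to low was Ctnna1, Xirp1, Jup, Cdh2, Pkp2, Dsp, Dsc2, Dsg2, Xirp2 and Ctnna3, with the ranges of Xirp1 and Jup, of Cdh2 and Pkp2, and of Dsc2 and Dsg2 overlapping. At P6 the order was Ctnna1, Cdh2, Xirp1, Pkp2, Jup, Dsp, Dsg2, Dsc2, Ctnna3 and Xirp2, with Xirp1, Pkp2 and Jup overlapping in turn and Dsg2 overlapping Dsc2. Ctnna1 led at both ages, at 240.4 ± 9.06 CPM per kb at P30 and 309 ± 21.3 CPM per kb at P6. Xirp2 had 23.1 ± 2.70 CPM per kb at P30 and 3.67 ± 0.164 CPM per kb at P6, where it was the lowest of the 10. Cdh2 had 98.99 ± 4.64 CPM per kb at P30, below Xirp1 and Jup, and 142 ± 0.903 CPM per kb at P6, above both. These are means with SD over 3 libraries at P30 and 4 at P6. The order between genes, and so the place of Cdh2 beside Xirp1, depends on the lengths used. The longest and the median coding transcripts have 5839 and 3080 bases for Xirp1, and 4843 and 4314 for Cdh2. With median lengths the mean of Xirp1 lay above that of Cdh2 at P6 as well as at P30, though not in P6a. Whether the rest of the order holds with median lengths was not tested.

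The make-up of the 10 genes does not depend on library scaling, though it does depend on the transcript lengths used. Adherens junction genes took a smaller part of it at P30 than at P6. Xin-repeat genes took a larger part, and so did the desmosome genes with Jup counted among them. As a share of the summed counts per kilobase of the 10 genes, Cdh2, Ctnna1 and Ctnna3 made up 40.3%, 36.8% and 39.2% in P30a to P30c, against 57.8%, 51.5%, 53.4% and 55.5% in P6a to P6d. The 5 desmosome genes made up 40.0%, 41.1% and 39.5% at P30, against 32.7%, 33.8%, 34.5% and 32.9% at P6. Xirp1 and Xirp2 together made up 19.7%, 22.1% and 21.3% at P30, against 9.47%, 14.8%, 12.1% and 11.6% at P6. With Jup counted in the desmosome, no class overlapped between the ages, but not every gene followed its class. The desmosome part includes Jup, which sits in adherens junctions as well, so the class parts depend on where Jup is counted. Without Jup, the part of the other desmosome genes overlapped between the ages, with P6c and P6d above P30a. Of the same sum, Jup made up 16.7% ± 1.51 at P30 and 11.1% ± 1.34 at P6, and Dsp 6.52% ± 0.625 at P30 and 4.59% ± 0.386 at P6. The mean part of Pkp2 was smaller at P30, at 10.3% ± 0.858, than at P6, at 11.5% ± 0.267. The ages nearly met for Pkp2, at 11.28% in P30c and 11.29% in P6b. The parts of Dsg2, Dsc2 and Ctnna3 overlapped between the ages. Within the 5 desmosome genes, Jup made up 41.5% ± 3.02 at P30 and 33.2% ± 3.86 at P6, and Pkp2 made up 25.7% ± 2.53 at P30 and 34.4% ± 0.743 at P6 (SD, n = 3 and n = 4). With the longest coding transcripts Dsg2 and Dsc2 were close to each other at both ages, at 8.32% each at P30, and 9.53% and 9.09% at P6. This closeness depends on the lengths used. With median lengths of coding transcripts, Dsc2 made up a mean of 38.97% of its sum with Dsg2 at P30 and 37.7% at P6. These shares describe the same fold changes in another form and were given no test.

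**Figure D3:**
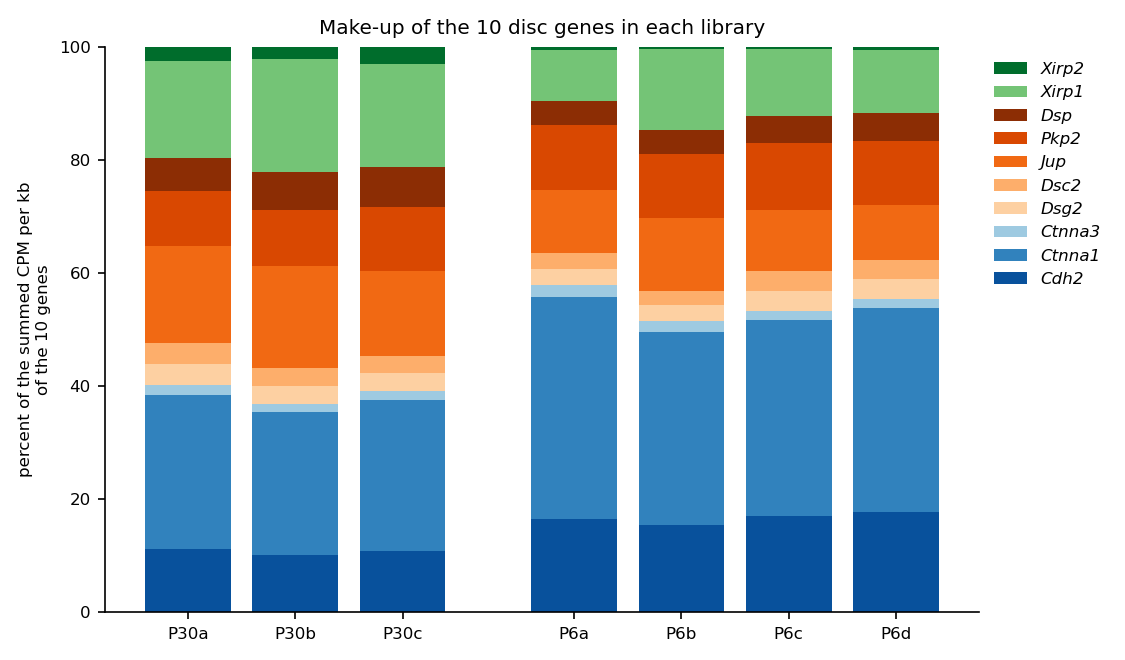
Stacked bars from 0 to 100 give each gene's percent of the summed CPM per kilobase of the 10 genes, 1 bar per library, P30 libraries on the left. The blue adherens junction part is 36.8% to 40.3% in the P30 libraries and 51.5% to 57.8% in the P6 libraries.

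Shares within 4 pairs of related genes were compared with a two-sided exact permutation test, with Benjamini-Hochberg adjustment over the 4 pairs. The 7 libraries can be ordered into ages in 35 ways, so the smallest p is 0.0286. Xirp2 made up 12.3%, 9.97% and 14.1% of the counts per kilobase of Xirp2 and Xirp1 in P30a to P30c, against 4.77%, 2.57%, 3.50% and 3.97% in P6a to P6d (exact p = 0.0286, adjusted p = 0.0571). The alpha-catenin pair gave Ctnna3 6.44%, 5.42% and 6.21% of its sum with Ctnna1 at P30, against 5.07%, 5.15%, 4.61% and 4.32% at P6 (exact p = 0.0286, adjusted p = 0.0571). In both pairs every P30 library was above every P6 library, and neither passed after adjustment. Both had the smallest exact p that 7 libraries allow. With only these pairs at that value, the adjusted p could not fall below 0.0571, so the threshold could not decide about them. The size of a share depends on the transcript lengths used: with median lengths the differences between the ages were 4.79 percentage points for Xirp2 and 0.347 for Ctnna3, against 8.40 and 1.23 with the longest coding transcripts.

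Jup was set against Ctnnb1, which encodes beta-catenin, its relative in the adherens junction. Ctnnb1 had 490.3, 500.4 and 439 CPM at P30, against 415, 463, 465 and 437 CPM at P6, and did not pass (log2 fold change 0.10 ± 0.08, SE, edgeR adjusted p = 0.347). The share of Jup did not overlap between the ages and was 53.8%, 55.3% and 52.0% in P30a to P30c, against 45.3%, 48.4%, 41.2% and 39.5% in P6a to P6d (exact p = 0.0571, adjusted p = 0.0762). Exons of Ulk4 on the opposite strand cover 14.6% of the exon bases of Ctnnb1, and the strand setting of the counting is not given. The Ctnnb1 level is uncertain for this reason. This percent is of bases and not of counts, and what part of the counts it touches was not tested. Dsc2 made up 50.4%, 50.5% and 48.9% of its sum with Dsg2 at P30, against 48.4%, 46.5%, 49.97% and 49.8% at P6, with overlap and an exact p of 0.314 (adjusted p = 0.314). The difference between the mean shares of Dsc2 was 1.30 percentage points.

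**Figure D4:**
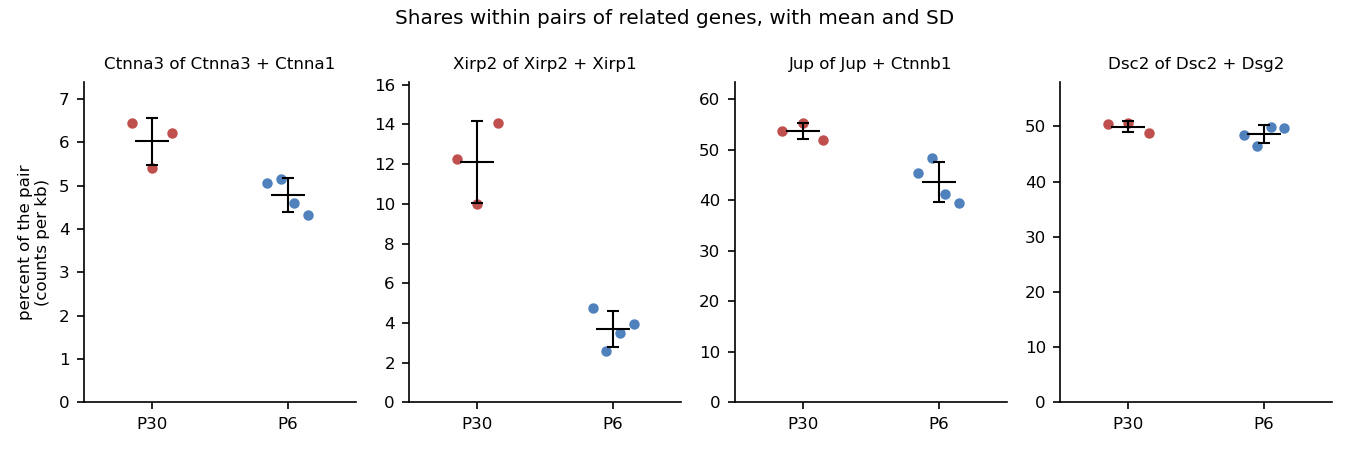
Percent that the first gene makes up of each pair (vertical axis, from 0, counts per kilobase) in each P30 library (red) and P6 library (blue), with the mean and SD. Xirp2 averaged 12.1% at P30 and 3.70% at P6, Jup averaged 53.7% and 43.6% at these ages, and the Dsc2 shares overlap.

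Among libraries of 1 age the genes varied to different degrees. At P6 the coefficient of variation over the 4 libraries was 0.634% for Cdh2, 4.48% for Xirp2 and 4.62% for Dsp, beside 17.95% for Jup and 23.9% for Xirp1, where the median over 3369 genes with a mean of at least 50 CPM was 10.1%. Cdh2 had 7568 counts in P6a and 8237 in P6d, where counting error alone exceeds 0.634%. Its low value is therefore no measure of how constant Cdh2 is. At P30 the 10 genes lay between 3.77% for Ctnna1 and 13.4% for Dsc2, with a median of 7.02% over the same 3369 genes.

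The genes whose profile over the 7 libraries was closest to that of Xirp2 were Gstm1, a glutathione transferase, Cxcr7, a chemokine receptor, and Slco3a1, an organic anion carrier, with root mean square differences of centred log2 CPM of 0.11, 0.13 and 0.13. Gstm1 had 162 ± 10.2 CPM at P30 and 26.5 ± 4.02 CPM at P6 (SD, n = 3 and n = 4). The profiles closest to Cdh2 were those of Fam195b, Ireb2, an iron regulatory protein, and Lrrfip2, at 0.029, 0.032 and 0.040. Ireb2 had 48.9 ± 2.17 CPM at P30 and 69.8 ± 1.85 CPM at P6 (SD, n = 3 and n = 4).

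Other genes of the junction were followed in 5 lists. Of 69 tested, 22 were higher and 25 lower at P30, with a median log2 fold change of -0.02. Over all tested genes 26.3% were higher and 27.8% lower, so the total is near the background, and the counts of the single lists are given as descriptions. Means of these genes are given with SD over 3 P30 and 4 P6 libraries. Among 17 adherens junction partners, 3 were higher and 6 lower, with a median of 0.02; without P6a, P30a or P30b only 1 was higher. Lmo7, a scaffold protein of adherens junctions, was lower, at 617 ± 26.3 CPM at P30 and 848 ± 120.1 CPM at P6. Pkp4, a plakophilin relative of p120-catenin, had the largest fall of that list, to 38.8 ± 2.43 CPM at P30, against 83.9 ± 4.89 CPM at P6 (log2 fold change -1.11 ± 0.09, SE, edgeR adjusted p = 1.55e-05). Sorbs2 did not pass (log2 fold change -0.28 ± 0.11, SE, edgeR adjusted p = 0.0637).

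The desmosome list held 4 tested genes besides the 5 described above, of which 2 were higher and 1 lower. Des, the desmin filament that desmoplakin anchors, had 2468, 2689 and 2528 CPM in P30a to P30c, against 1669, 1761, 1809 and 1778 CPM in P6a to P6d (log2 fold change 0.55 ± 0.07, SE, edgeR adjusted p = 0.00022). Tmem43, a membrane protein in which faults also cause arrhythmogenic cardiomyopathy, had a log2 fold change of 1.03 ± 0.14 (SE, edgeR adjusted p = 0.0002). Perp, a tetraspan protein of epithelial desmosomes, was lower, with 280.4, 272 and 286 CPM at P30, against 708, 688, 867 and 991 CPM at P6 (log2 fold change -1.54 ± 0.13, SE, edgeR adjusted p = 1.85e-05). Krt8 and Krt18 were the 2 lower epithelial and epicardial markers given above, while Krt19, Upk3b, Msln and Wt1 overlapped between the ages. What part other cells have in the level of Perp was not tested. The remaining tested gene, Ppl, or periplakin, did not pass. The epidermal desmogleins, desmocollins and plakophilins of the list, and Evpl, had too few counts to be tested.

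Among 8 tested cadherins other than Cdh2, 3 were higher and 2 lower, with a median log2 fold change of -0.13; with P6a, P6b or any 1 of the 3 P30 libraries left out, only 1 was lower. The most counted was Cdh13, or T-cadherin, at 259 ± 24.5 CPM at P30 and 214 ± 23.5 CPM at P6, which did not pass (edgeR adjusted p = 0.0553). Cdh5, the endothelial cadherin, was higher, at 47.7 ± 23.3 CPM at P30 and 16.6 ± 5.36 CPM at P6, along with the other endothelial markers. Cdh3, or P-cadherin, was lower, with 0.223, 0 and 0.0701 CPM at P30, against 1.63, 4.89, 2.69 and 2.45 CPM at P6. Cdh23, a cadherin known from hair cells of the inner ear, had 5.63, 4.39 and 1.61 CPM at P30, against 0.995, 0.166, 0.295 and 0 CPM at P6, a log2 fold change of 3.58 ± 0.73 (SE, edgeR adjusted p = 0.00246), and of 4.26 without P6a.

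Of 17 gap junction and disc membrane genes 6 were higher and 7 lower, with a median log2 fold change of -0.26. Gja1, connexin 43, the main gap junction protein of the ventricle, had 1565, 1439.8 and 1274 CPM in P30a to P30c, against 2022, 1942, 1495 and 1554 CPM in P6a to P6d. The groups overlapped, and the log2 fold change of -0.30 ± 0.13 did not pass (SE, edgeR adjusted p = 0.0737). Popdc2, a cyclic AMP binding membrane protein, was lower, at 1185 ± 49.3 CPM at P30 and 1617 ± 106 CPM at P6. Gja5, connexin 40, was lower, with 9.71, 7.88 and 10.2 CPM at P30, against 43.2, 31.8, 13.6 and 11.6 CPM at P6 (log2 fold change -1.42 ± 0.43, SE, edgeR adjusted p = 0.0188). Without P30a the log2 fold change was -1.46 (edgeR adjusted p = 0.0539) and without P30b -1.32 (edgeR adjusted p = 0.0648), so the size stayed near and the call was lost. The largest rise was that of Esam, an adhesion molecule of endothelial cells, at 48.1 ± 17.3 CPM at P30 and 17.1 ± 2.28 CPM at P6. Esam was highest in P30b, as the endothelial markers were, and their part in its level was not tested.

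In the list of 23 disc scaffold genes 8 were higher and 9 lower, with a median log2 fold change of 0.06. Csrp3, the muscle LIM protein, was higher, at 2031 ± 212 CPM at P30 and 1274 ± 188 CPM at P6. Fhl2, another LIM protein and the most counted, did not pass (log2 fold change 0.20 ± 0.12, SE, edgeR adjusted p = 0.18). Synm, the intermediate filament protein synemin, had the largest rise, with 3.74, 5.30 and 4.35 CPM at P30, against 1.36, 1.13, 2.03 and 0.338 CPM at P6. Dstn, the actin-severing protein destrin, had the largest fall, to 206 ± 25.7 CPM at P30, against 933 ± 177 CPM at P6 (log2 fold change -2.18 ± 0.16, SE, edgeR adjusted p = 7.62e-06).

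**Figure D5:**
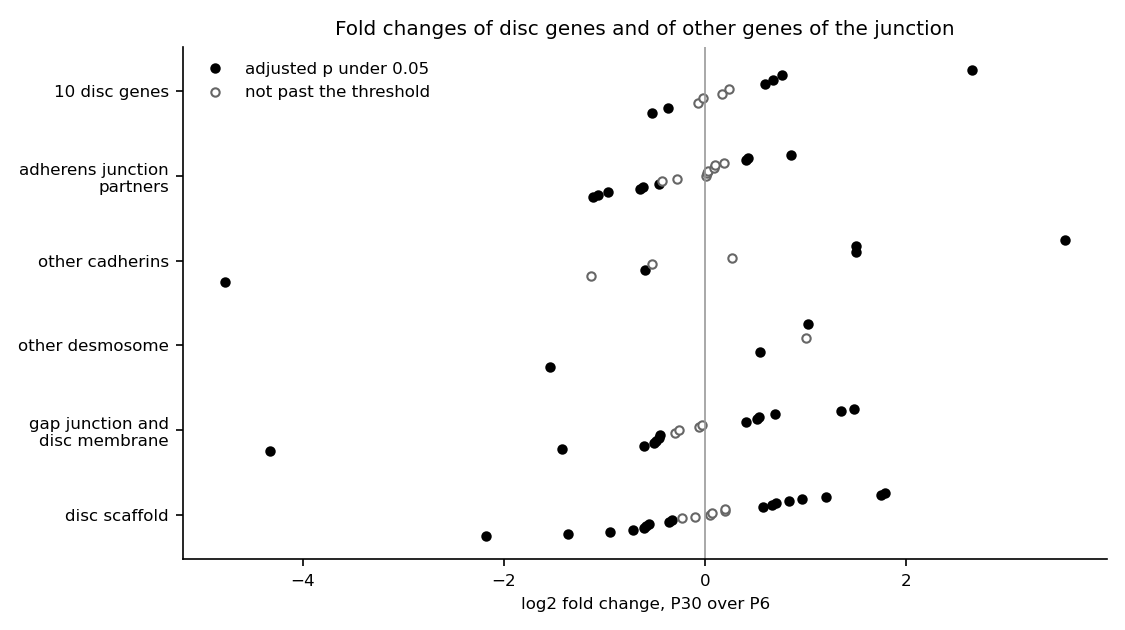
Log2 fold change of P30 over P6 for the 10 disc genes and for each tested gene of the 5 lists of other junction genes; filled points passed the test and open points did not. Each of the lists holds both higher and lower genes, and Xirp2, at 2.66, is the rightmost of the 10.

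The authors' deposited table gave the same split of the 10 genes, 4 higher and 2 lower at P30 at an adjusted p under 0.05. Its log2 fold changes differed from those of edgeR by at most 0.018, and 9 of the 10 had the same sign; the exception was Ctnna3, at 0.0013 in the authors' deposited table.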

How the data were processed

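The deposited count table holds raw counts per gene that the authors made by tools that the submitters' processing notes list as CASAVA 1.8, STAR 2.5.3a, featureCounts and Subread 1.5.2, with the build mm10. Per the labels' protocols, cDNA from little input RNA was amplified by PCR before Nextera tagging, so counts are not independent molecules. For strand, annotation and multi-mapped reads, the setting is not given in the sources used here. A second deposited table is a DESeq2 comparison by the authors: baseMean is a signal (mean scaled count), fold changes and errors are log2, the Wald statistic is a score, and p-values are adjusted and unadjusted, per the file headers. Its sign was P30 over P6 when checked against the counts.

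The test was that of edgeR 4.0.16 under R 4.3.3 (filterByExpr, TMM, quasi-likelihood fit of age, no covariate, Benjamini-Hochberg over 12561 genes, threshold 0.05), and the procedure was tested on simulated data. Depth was 10594932 to 51427646 counts per library; 3 counts equal 0.0553 to 0.271 CPM, and such limits cover counting error only. No library duplicated another (chi-square per gene at least 13.0 within an age). Lengths and positions came from GENCODE M21 (GRCm38), which matched 22907 of 23337 symbols. Exon overlaps with opposite-strand genes were 1.48% of exon bases for Ctnna1, 3.99% for Dsg2, 5.17% for Dsp and 1.40% for Xirp2.

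The 10 genes, the 5 lists of other junction genes, the 9 marker lists and the tests were chosen with earlier results of these data known. Named from each list were the 2 most counted genes and the largest rise and fall among called genes with a mean of at least 1 CPM, and the 3 closest profiles to the genes with the largest rise and fall (log2 of CPM plus 0.5). A gene that this rule names is not reported here. The alternatives were other scaling, DESeq2 1.42.0, no filter, a length trend removed, other lengths or raw counts for shares, and each library left out.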

Additional observations from a re-analysis of the deposited data

How the results depend on the processing

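The 6 calls among the 10 genes kept their direction and stayed past the threshold under all 12 alternatives run: library totals, DESeq2 size factors, DESeq2's Wald test, no filter on low counts, the length trend removed and each of the 7 libraries left out. The counts were 4 higher and 2 lower in each of these except that library totals gave 3 lower, since Pkp2 then passed with a log2 fold change of -0.25 (edgeR adjusted p = 0.0294). With 1 library left out, log2 fold changes ranged from -0.56 to -0.50 for Cdh2, -0.39 to -0.32 for Ctnna1, 0.59 to 0.80 for Jup, 0.55 to 0.67 for Dsp, 0.66 to 0.93 for Xirp1 and 2.56 to 2.73 for Xirp2. Over all 12 alternatives the genes that did not pass with TMM factors ranged from -0.20 to 0.07 for Ctnna3, -0.01 to 0.24 for Dsg2, 0.06 to 0.34 for Dsc2 and -0.25 to -0.03 for Pkp2. The other junction genes gave 17 to 23 higher and 23 to 29 lower. By list, adherens partners gave 1 higher with library totals or without the length trend (3 in the report), other cadherins 6 higher by DESeq2 and 7 with no filter (3 in the report), and other desmosome genes 4 higher with no filter (2 in the report), where more genes were tested. Sorbs2 passed as lower with library totals (edgeR adjusted p = 0.00445), without the length trend (0.0157) and without P6b (0.042). Gja1 passed as lower with library totals (edgeR adjusted p = 0.0129), without P6c (0.0386) and without P6d (0.0456). Fhl2 passed as higher without the length trend (edgeR adjusted p = 0.00883) and without P6d (0.0494), and Cdh13 with DESeq2 size factors (0.0374), by DESeq2's Wald test (0.046) and without P6b (0.0307). The causes were not tested. Another length rescales a pair's share without reordering the libraries, and the exact p of each pair was the same, but the size of the difference moved. With median transcript lengths and with raw counts it was 4.79 and 14.7 percentage points for Xirp2 (8.40 with the longest transcripts), 0.347 and 1.22 for Ctnna3 (1.23), 6.27 and 10.0 for Jup (10.1), and 1.22 and 1.27 for Dsc2 (1.30). With 6 libraries the smallest exact p is 0.0667 or 0.1, so shares with 1 library left out are values only: the difference between ages was 7.42 to 9.46 percentage points for Xirp2, 8.73 to 11.7 for Jup, 1.03 to 1.54 for Ctnna3 and 0.581 to 1.83 for Dsc2. No paired analysis was possible because the count columns carry letters that the labels tie to no replicate number. The depth was at least 512 counts per gene and library for the 10 genes.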
